A study of Mus musculus with 9 samples.

Results

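Interferon-stimulated genes are the antiviral transcripts that a cell makes after it senses interferon. A list of 42 of them was followed in RNA-seq libraries from mouse hearts. The members are the rows of the count tables whose mouse gene ID carries one of the listed symbols. All 42 were found among the 53465 genes counted, and all 42 passed the filter on low counts that left 13825 genes for testing. The lowest count of a member in any library was 7, for Oas3, and the highest was 2224, for Ifitm3.

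Per the labels, the 9 libraries came from NOD-SCID mice, a strain that lacks mature T and B cells, and the sampled region is named as the infarct border zone in every group. Of these, 3 came from sham-operated hearts, 3 from hearts in which a coronary artery had been tied off, and 3 from hearts tied in the same way that were also implanted with a cell product the labels call FOXO3-GE-MPCs. They are called sham, ligation and cells here. Age, sex, time after surgery, cell dose and the number of animals are not given in the sources used here. There was no group with cells of another kind and none with the injection alone, so the cells and their delivery cannot be told apart.

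Type I interferons bind a receptor of the chains IFNAR1 and IFNAR2, whose kinases JAK1 and TYK2 phosphorylate STAT proteins. The complex ISGF3, which holds STAT2 and IRF9, binds the interferon-stimulated response element in promoters of genes such as Ifit1, Mx1 and Isg15. Interferon-gamma acts at another element, the gamma-activated site, and induces Irf1. In the heart these genes are expressed by cardiomyocytes, endothelial cells and fibroblasts as well as by leukocytes, and leukocytes enter the injured wall after a coronary artery is closed.

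Promoter sequence was available for 30 of the 42 genes in a RefSeq table (build GRCm38.p6, 250 bases before to 50 after each gene's start). The core of the response element was searched on both strands as GAAA, any 2 bases and GAAA again, overlapping matches included. It was present in 15 of the 30 promoters (50%), in 1079 of 27025 promoters of the whole table (3.993%) and in 392 of 10262 promoters of tested genes (3.82%). The gamma-activated site, searched as TTCNNNGAA on both strands, was present in 7 of 30 (23.33%), against 2582 of 27025 (9.554%) and 823 of 10262 (8.02%). Promoters of genes chosen as interferon targets are shown because the same element stood before genes that fell, genes that rose and genes that did not pass the test after ligation. The windows are written 5′ to 3′ on the strand of the gene, with every base of a match in capitals, and a match on the opposite strand reads TTTC, any 2 bases and TTTC.
Bst2: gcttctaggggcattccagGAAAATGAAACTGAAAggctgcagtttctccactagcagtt
Stat2: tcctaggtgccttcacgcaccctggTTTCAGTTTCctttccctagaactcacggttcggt
Rsad2: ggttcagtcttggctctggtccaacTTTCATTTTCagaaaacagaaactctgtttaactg
Oas1a: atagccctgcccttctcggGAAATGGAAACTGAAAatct
Ifi207: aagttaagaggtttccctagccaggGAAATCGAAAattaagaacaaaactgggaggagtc
Ifit1: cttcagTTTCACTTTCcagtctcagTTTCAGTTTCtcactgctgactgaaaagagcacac
Isg15: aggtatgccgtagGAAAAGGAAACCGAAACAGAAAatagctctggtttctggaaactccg
Ifit3: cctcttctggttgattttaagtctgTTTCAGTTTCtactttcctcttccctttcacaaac
Ifit3b: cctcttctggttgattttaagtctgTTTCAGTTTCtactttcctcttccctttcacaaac

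The first 3 of these windows belong to genes that were lower after ligation, the next 2 to genes that were higher, and the last 4 to genes that did not pass the test. Bst2 lies at chr8:71537562-71537621 on the minus strand, Stat2 at chr10:128270251-128270310 on the plus strand and Rsad2 at chr12:26456538-26456597 on the minus strand. Oas1a lies at chr5:120907526-120907564 and Ifi207 at chr1:173741816-173741875, both on the minus strand. Ifit1 lies at chr19:34640779-34640838 on the plus strand and Isg15 at chr4:156200850-156200909 on the minus strand. Ifit3 at chr19:34583382-34583441 and Ifit3b at chr19:34607778-34607837, both on the plus strand, are identical at 60 of 60 bases. The printed match nearest to the start began 14 bases before it in Oas1a, 41 in Ifi207, 66 in Isg15, 85 in Ifit1, 120 in Rsad2, 122 in Ifit3, 124 in Bst2, 154 in Ifit3b and 222 in Stat2. Of the members with a promoter in the table, the response element was present in 3 of 5 called higher after ligation, 5 of 11 called lower and 7 of 14 not called. A match is a description of the letters in the window, not evidence of binding.

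Libraries held between 4549268 (ligation replicate 1) and 7515052 gene counts (ligation replicate 3). Values are CPM, counts scaled to a common library size with edgeR's TMM factors, and 3 counts were worth 0.375 to 0.639 CPM. Mitochondrially encoded genes took 19.1% to 19.9% of gene counts in sham, 12.5% to 13.9% in ligation and 14.3% in each library with cells. Cardiomyocyte markers were abundant in all 9 libraries, while 5 T cell markers summed to 0.567 to 3.20 CPM and 4 B cell markers to 0 to 1.25 CPM. Cd3d and Ms4a1 had 0 counts in all libraries, and Cd4, with 70 counts over the 9 libraries, was the most abundant of these markers. Names in the file headers share a stem between sham replicates 1 and 2 and between ligation replicates 2 and 3. The labels do not say that replicates are separate animals, so p-values measure the spread between these libraries. In whole tissue, fewer cells of a type and less RNA per cell cannot be told apart.

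Of the 42 members, 19 were called after ligation, in both directions, and 11 in hearts with cells against ligation, all of them lower. Against sham, 7 of 42 members were higher and 12 lower after ligation at an adjusted p under 0.05 (edgeR quasi-likelihood test, Benjamini-Hochberg over all 13825 genes). Over all genes tested, 20.1% were called higher, 18.0% lower and 38.2% in either direction, so the share of members called higher is not above that of all genes. Only Rsad2 passed that test with a change of at least 2-fold, against 7.08% of all genes. The 3 ligation libraries lay below the 3 sham libraries for 15 of 42 members (22.6% of all genes) and above them for 7 of 42 (25.0% of all genes). The median log2 fold change of the members was -0.13, beside 0.01 for all genes. The direction of that median depended on the scaling: with library totals alone the median of all genes was 0.20, that of the members was 0.06, and 8 members were called higher and 8 lower. The same change of scaling gave 4966 of 6312 called genes higher, against 2783 of 5277 with TMM factors.

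Against ligation, 11 of 42 members were lower in hearts with cells and 0 were higher, while 5.69% of all genes were called lower, 4.19% higher and 9.87% in either direction. The count of 0 was the same with DESeq2 and limma-voom, and 1 member, Eif2ak2, was higher at an unadjusted p under 0.05. The median log2 fold change was -0.17, beside 0.00 for all genes, and 36 of 42 members had a negative value. The CPM ranges of the 3 libraries with cells lay below those of the 3 ligation libraries for 18 of 42 members, against 14.0% of all genes. Without ligation replicate 2, only 6 of the 11 passed. DESeq2 called 8 lower and limma-voom 12. Library totals alone gave 12 lower and 0 higher, with 436 of 1363 called genes higher, against 579 of 1365.

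Against sham, hearts with cells had 2 members higher (Eif2ak2 and Ifi27l2a) and 17 lower, while 21.0% of all genes were called higher, 20.0% lower and 40.9% in either direction. The median log2 fold change was -0.29, beside -0.01 for all genes. With library totals alone, 3 members were higher and 14 lower, and 4612 of 6310 called genes were higher, against 2899 of 5661. Rsad2 alone passed with at least 2-fold, against 7.46% of all genes. Without sham replicate 1, or without cells replicate 2, only 1 member passed as higher. Each group stands in 2 of the 3 comparisons, so their fold changes are not independent. When libraries with a shared header stem were summed, 6 members were higher and 11 lower after ligation, 0 and 10 with cells against ligation, and 2 and 17 with cells against sham.

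**Figure D1:**
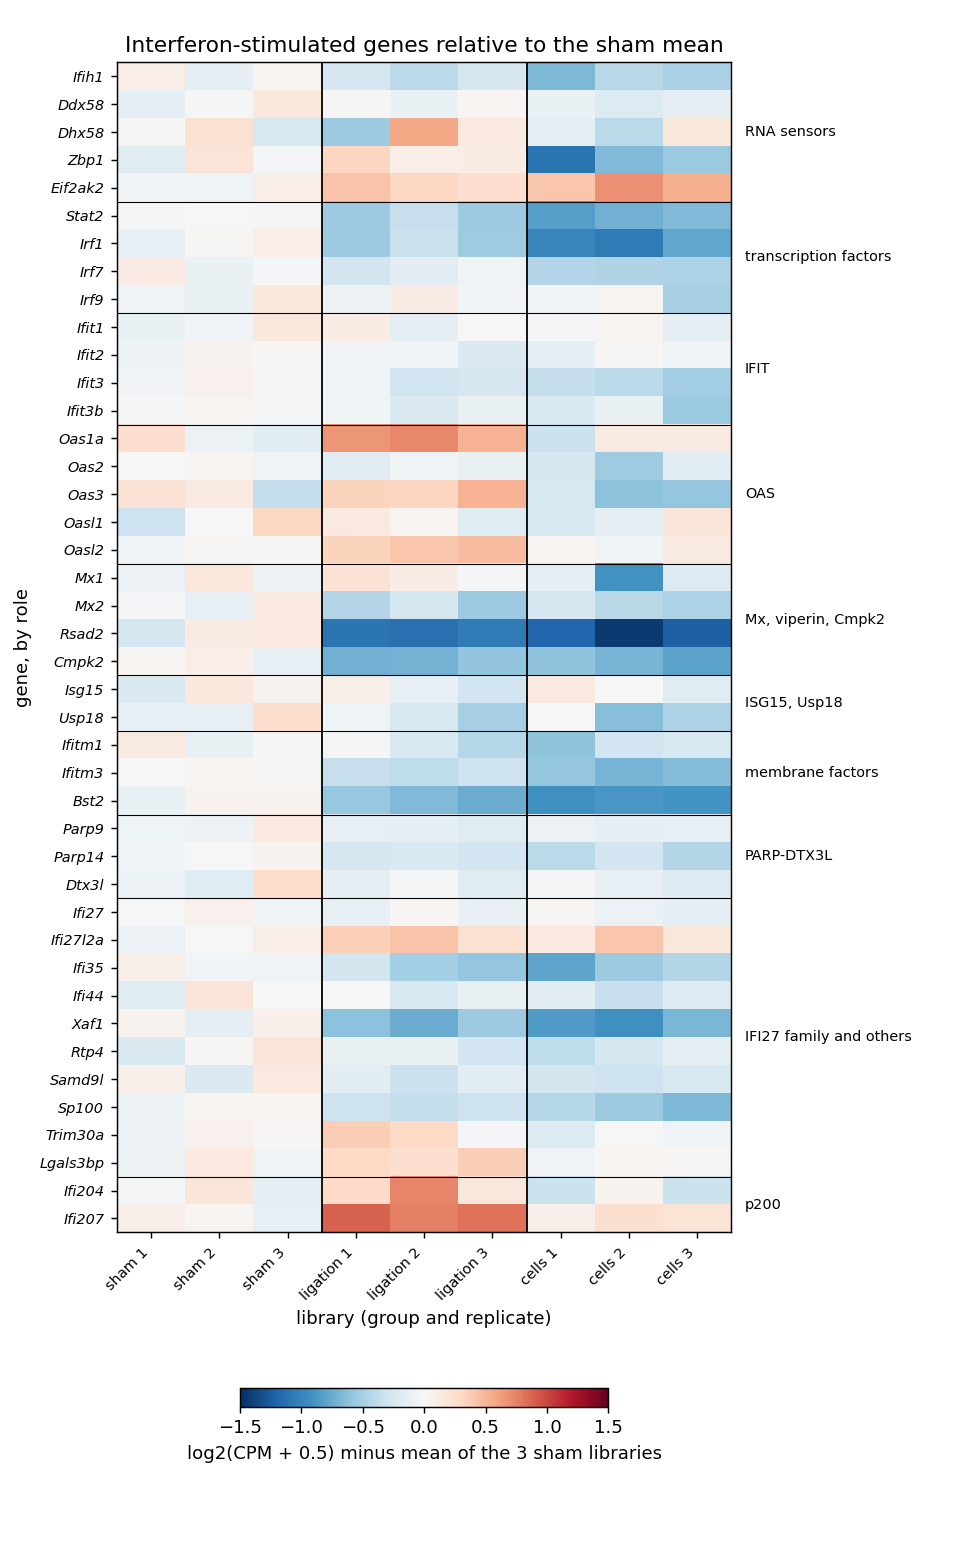
Rows are the 42 genes by role and columns are the 9 libraries. Colour is log2(CPM + 0.5) minus the mean of the 3 sham libraries, so that red is above and blue below sham. Rsad2, Cmpk2, Xaf1 and Bst2 are blue in all ligation and cell libraries, while Ifi207 and Oas1a are red in the 3 ligation libraries.

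Summed over the 42 genes, the level was 1909 to 2009 CPM in sham, 1725 to 1776 CPM in ligation and 1521 to 1557 CPM with cells, and the 3 ranges did not overlap. The order of sham and ligation depended on the scaling: with library totals alone the sum was 1749 to 1849 CPM in sham and 1831 to 1863 CPM in ligation, which overlapped, and 1568 to 1594 CPM with cells, which stayed below both. Per kilobase of exon, which allows levels of different genes to be compared, Ifitm3 was highest in sham at 509 CPM per kb. It was followed by Ifi27l2a at 254, Bst2 at 145 and Ifi27 at 81.5, and Oas3 was lowest at 0.254 CPM per kb.

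Markers of the cell types that the tissue could hold moved between the same groups. The sum of 6 cardiomyocyte markers was 44328 to 45893 CPM in sham, 34113 to 35747 CPM in ligation and 33153 to 33916 CPM with cells, and 4 of 6 were called lower and 1 higher after ligation. The sum of 12 macrophage and monocyte markers was 744 to 804 CPM in sham, 1344 to 1353 CPM in ligation and 550.1 to 559 CPM with cells. Of these 12, 11 were called higher after ligation, 12 lower with cells against ligation and 7 lower with cells against sham. The sum of 6 endothelial markers was 1868 to 1973 CPM in sham, 1242 to 1310.2 CPM in ligation and 1369 to 1409 CPM with cells, with 6 of 6 lower after ligation. The sum of 5 neutrophil markers was 36.7 to 43.6 CPM in sham, 13.4 to 19.1 CPM in ligation and 5.76 to 6.10 CPM with cells. After ligation S100a8 and S100a9 were called lower, Csf3r and Cxcr2 were not called and Ly6g was not tested. The sum of 6 fibroblast markers was 1743 to 1797 CPM in sham, 2632 to 2699 CPM in ligation and 2623 to 2677 CPM with cells. Of these 6, Col1a1, Col1a2, Dcn and Lum were called higher after ligation, Pdgfra lower (edgeR adjusted p = 0.0490) and Tcf21 was not called (0.664). The sum of 5 NK cell markers stayed between 0.284 and 2.75 CPM in the 9 libraries. The sum of 5 plasmacytoid dendritic cell markers was 1998 to 2162 CPM in sham, 1123 to 1191 CPM in ligation and 1125 to 1221 CPM with cells, nearly all of it from Cox6a2, which is also a heart muscle gene and fell after ligation. Of the other 4, Pacsin1 was called higher after ligation (3.17 to 11.4 CPM over the 9 libraries), and Siglech, Ccr9 and Klk1 summed to at most 0.875 CPM. The part of these cell types in the values of the 42 genes was not tested.

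**Figure D2:**
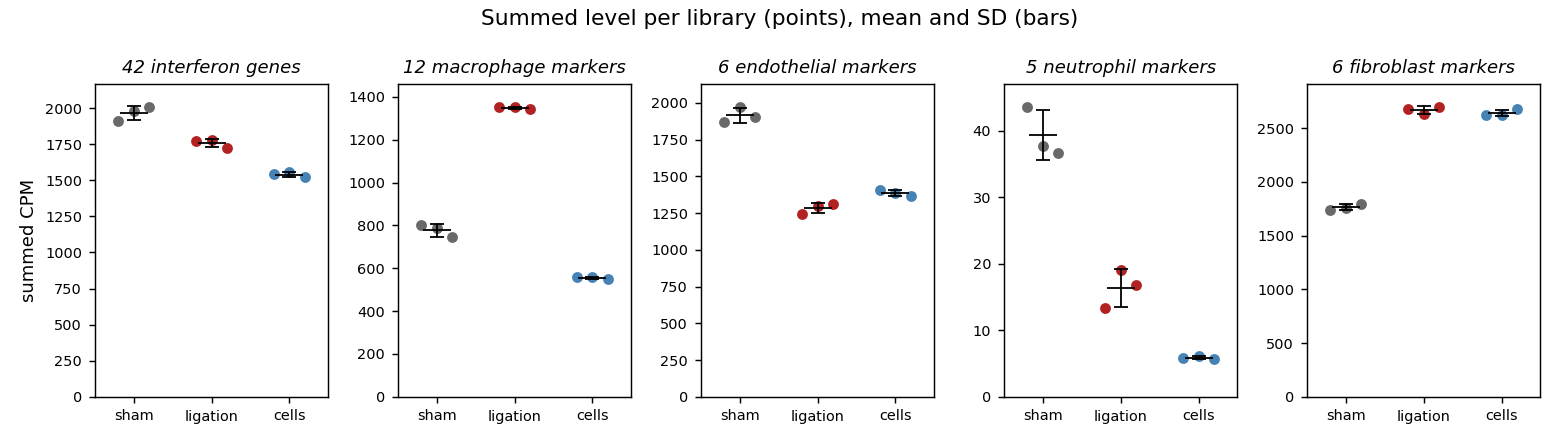
Each panel gives a summed level in CPM (vertical axis from 0) for the 9 libraries, with points for libraries and bars for the mean and SD of 3. With TMM factors the sum over the 42 interferon genes is highest in sham and lowest with cells (with library totals alone sham and ligation overlap), while the macrophage sum is highest in ligation and the endothelial sum highest in sham.

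**Figure D3:**
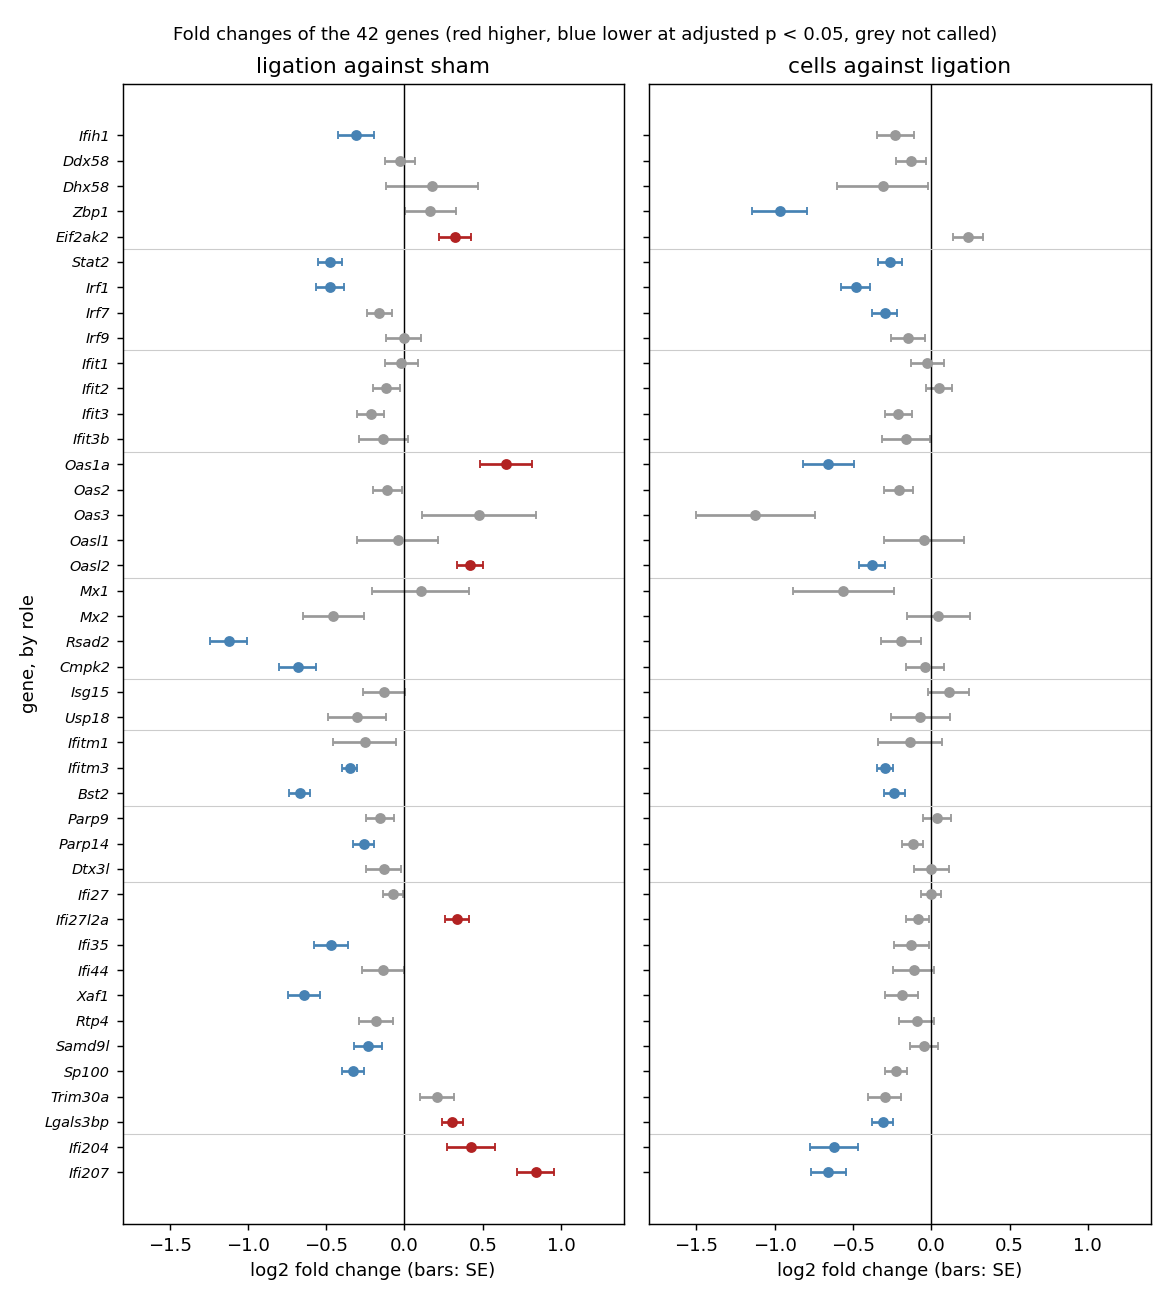
Points are log2 fold changes of the 42 genes in ligation against sham (left) and cells against ligation (right), with bars for the standard error. Red and blue mark genes called higher and lower and grey those not called; 7 points are red and 12 blue on the left, and 0 red and 11 blue on the right.

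Of the 4 transcription factors listed, Stat2 and Irf1 fell after ligation, Irf7 was not called after ligation (edgeR adjusted p = 0.115) and Irf9 was called in no comparison. Of all genes, 18.0% were lower after ligation and 5.69% lower with cells against ligation, where 3 of the 4 factors were lower. Stat2, the ISGF3 subunit engaged by type I and type III interferons, was at 71.4, 71.8 and 73.2 CPM in sham, 49.4, 56.9 and 49.1 CPM in ligation and 40.6, 43.7 and 45.2 CPM with cells. The 3 ranges did not overlap. It fell 1.39-fold after ligation (log2 fold change -0.48, SE 0.0746, edgeR adjusted p = 3.33e-05). It was 1.20-fold lower with cells than in ligation (log2 -0.27, adjusted p = 0.0324 by edgeR), a call lost with DESeq2 (adjusted p = 0.0958), with only the 2 groups in the fit (0.0528), with libraries of a shared header stem summed (0.0689) and without ligation replicate 2 (0.203), cells replicate 1 (0.139) or cells replicate 2 (0.0587).

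Irf1, a factor induced by interferon-gamma as well as by type I interferon, was at 55.9, 61.8 and 65.2 CPM in sham, 41.5, 48.0 and 42 CPM in ligation and 30.4, 28.9 and 35.1 CPM with cells. Every sham library was above every ligation library, and every ligation library above every library with cells. The log2 fold change was -0.47 (SE 0.0889, edgeR adjusted p = 0.000237) after ligation and -0.48 (SE 0.0941, adjusted p = 0.00162) with cells against ligation.

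Irf7, which amplifies interferon production, was at 66.7, 57.0 and 60.0 CPM in sham, 50.5, 54.3 and 58.6 CPM in ligation and 45.1, 44.5 and 43.9 CPM with cells. Sham and ligation overlapped, and the libraries with cells lay below both. Without ligation replicate 3 it was called lower after ligation (edgeR adjusted p = 0.0425). It fell 1.23-fold with cells against ligation (log2 -0.30, edgeR adjusted p = 0.0179), and the call was lost with DESeq2 (0.0507) and without ligation replicate 2 (0.0532), ligation replicate 3 (0.128) or cells replicate 3 (0.0608). Irf9, the DNA-binding subunit of ISGF3, was at 47.7, 45.8 and 54.9 CPM in sham, 46.7, 53.1 and 47.9 CPM in ligation and 47.9, 50.6 and 34.9 CPM with cells. Its groups overlapped in every comparison, and its edgeR adjusted p-values were 0.975, 0.472 and 0.285.

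Among the sensors of foreign nucleic acid, 1 of 5 rose and 1 fell after ligation, and 1 fell with cells against ligation. The counts after ligation are near the shares of all genes (20.1% higher and 18.0% lower), and 5.69% of all genes were lower with cells against ligation. Zbp1, a sensor of Z-form nucleic acid that can start necroptosis, was at 10.9, 14.2 and 12.2 CPM in sham, 15.6, 13.3 and 13.4 CPM in ligation and 5.53, 7.63 and 8.21 CPM with cells. Sham and ligation overlapped, and all 3 libraries with cells lay below them. It fell 1.96-fold with cells against ligation (log2 -0.97, SE 0.173, edgeR adjusted p = 0.000702), the largest fall among the members called in that comparison. Ddx58, which encodes the RNA sensor RIG-I, was at 29.4, 31.6 and 36.2 CPM in sham, 32.6, 30.1 and 32.9 CPM in ligation and 30.1, 27.9 and 29.4 CPM with cells, and passed no test.

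Eif2ak2, the kinase PKR that halts translation on double-stranded RNA, was the only member with a mean that was higher in ligation than in sham and higher again with cells. It was at 23.8, 23.6 and 26.4 CPM in sham, 33.2, 30.5 and 29.3 CPM in ligation and 32.9, 39.9 and 35.9 CPM with cells. It rose 1.25-fold after ligation (edgeR adjusted p = 0.0166) and was 1.47-fold higher with cells than in sham (0.000132), while ligation and cells overlapped (0.142). It was singled out after its values were seen. Ifih1, the long RNA sensor MDA5, averaged 25.6 ± 2.24 CPM (SD, n = 3) in sham, 20.6 ± 1.21 CPM in ligation and 17.6 ± 1.67 CPM with cells. It fell after ligation (edgeR adjusted p = 0.0410) and was not called with cells against ligation (0.264). Dhx58, a regulator of both sensors, stayed between 2.98 and 7.09 CPM in all libraries and was not called.

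The IFIT proteins bind viral RNA, and their genes stand side by side on chromosome 19. Of the 4 genes, 0 passed the edgeR test after ligation and 0 with cells against ligation, and their log2 fold changes lay between -0.22 and 0.05. Of all genes, 38.2% and 9.87% were called in these comparisons. Ifit1 was at 26.3, 27.2 and 31.6 CPM in sham, 30.7, 25.8 and 28.1 CPM in ligation and 27.8, 29.1 and 25.6 CPM with cells, and the 3 groups overlapped. Ifit3 was at 45.03, 48.4 and 45.7 CPM in sham, 44.3, 37.5 and 38.9 CPM in ligation and 36.2, 35.0 and 32.3 CPM with cells. It just missed the threshold after ligation (edgeR adjusted p = 0.0505), passed it with limma-voom (0.0434), RLE factors (0.0429), only the 2 groups in the fit (0.0373), mitochondrially encoded genes left out (0.0368), and without ligation replicate 1 (0.0215) or cells replicate 2 (0.0467), and was 1.35-fold lower with cells than in sham (edgeR adjusted p = 0.000399). Ifit3 and Ifit3b share 61.8% and 55.2% of their 31-base stretches with other genes, chiefly each other, so the split of reads between them is uncertain. Ifit2 averaged 41.3 ± 1.91 CPM (SD, n = 3) in sham, 38.3 ± 2.43 CPM in ligation and 39.5 ± 2.24 CPM with cells, and Ifit3b stayed between 8.35 and 12.8 CPM.

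The OAS genes encode synthetases of the short oligoadenylates that switch on RNase L, or related proteins without that activity, and 2 of 5 rose after ligation while 0 fell, beside 20.1% higher and 18.0% lower of all genes. Oas1a was at 12.3, 9.56 and 9.05 CPM in sham, 16.4, 17.1 and 14.9 CPM in ligation and 8.08, 11.2 and 11.2 CPM with cells. The 3 ligation libraries lay above all others. It rose 1.57-fold after ligation (log2 0.65, SE 0.165, edgeR adjusted p = 0.00366) and was 1.58-fold lower with cells than in ligation (log2 -0.66, SE 0.160, adjusted p = 0.0106 by edgeR). The latter call was lost without ligation replicate 2 (0.0539) or cells replicate 1 (0.0669). Oas1a shares 68.8% of its 31-base stretches with other genes, chiefly Oas1g, and its value may include their reads.

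Oasl2, a relative with ubiquitin-like domains, shares only 1.23% of such stretches. It was at 31.3, 32.8 and 32.7 CPM in sham, 40.9, 43.3 and 44.8 CPM in ligation and 32.9, 31.1 and 35.4 CPM with cells. Ligation stood above the other groups, and sham and cells overlapped. It rose 1.34-fold after ligation (log2 0.42, SE 0.0848, edgeR adjusted p = 0.000523) and was 1.30-fold lower with cells (log2 -0.38, SE 0.0828, adjusted p = 0.00425). Its neighbour Oasl1, 11.005 kb away on the same strand, stayed between 3.74 and 6.03 CPM and was not called.

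Oas2 was at 40.9, 42.01 and 39.2 CPM in sham, 36.0, 39.2 and 37.8 CPM in ligation and 34.0, 27.9 and 36.2 CPM with cells. It was 1.25-fold lower with cells than in sham (edgeR adjusted p = 0.0105), a call lost without cells replicate 2 (0.0694) and with library totals alone (0.195). Oas3, with 7 to 22 counts in a library, averaged 2.47 CPM in ligation and 1.13 CPM with cells and was not called (edgeR adjusted p = 0.0687). Oas2 and Oas3 lie 3.24 kb apart on chromosome 5.

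Viperin and its neighbour gave the largest fall after ligation. Rsad2 encodes viperin, an enzyme that makes a chain-terminating nucleotide against viral polymerases, and Cmpk2 encodes a kinase that supplies the nucleotide. Rsad2 was at 35.6, 46.6 and 47.5 CPM in sham, 19.8, 19.4 and 20.4 CPM in ligation and 18.6, 15.5 and 18.0 CPM with cells. Cmpk2, which starts 12.8 kb away on the opposite strand, was at 26.5, 27.8 and 23.8 CPM in sham, 15.6, 15.8 and 17.1 CPM in ligation and 16.9, 15.8 and 14.7 CPM with cells. For both genes, every sham library lay above all 6 others.

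Rsad2 fell 2.18-fold after ligation (log2 -1.12, SE 0.116, edgeR adjusted p = 1.36e-07) and Cmpk2 fell 1.60-fold (log2 -0.68, SE 0.117, adjusted p = 8.98e-05). Neither was called with cells against ligation (edgeR adjusted p = 0.401 and 0.895). The Mx genes encode dynamin-like GTPases that trap viral particles. Mx1 was at 2.85, 3.46 and 2.86 CPM in sham, 3.62, 3.33 and 3.0 CPM in ligation and 2.69, 1.39 and 2.59 CPM with cells, and passed no test. Mx2 averaged 8.32 ± 0.823 CPM (SD, n = 3) in sham, 6.09 ± 0.659 CPM in ligation and 6.27 ± 0.474 CPM with cells, with an edgeR adjusted p of 0.0773 after ligation.

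Isg15, the ubiquitin-like protein that is among the most strongly induced interferon targets, was at 19.0, 24.9 and 23.0 CPM in sham, 23.7, 20.4 and 18.1 CPM in ligation and 24.5, 22.3 and 19.4 CPM with cells. The groups overlapped throughout, and the log2 fold changes were -0.13, 0.11 and -0.02 (edgeR adjusted p = 0.484, 0.677 and 0.934). The standard error of these values was 0.130 to 0.134. A difference must be well beyond its standard error to be called, so changes somewhat larger than these values could also be missed. Usp18, the protease that removes Isg15 and dampens the receptor, averaged 13.9 ± 2.22 CPM (SD, n = 3), 11.5 ± 1.80 CPM and 10.8 ± 2.62 CPM in sham, ligation and cells, and was not called.

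**Figure D4:**
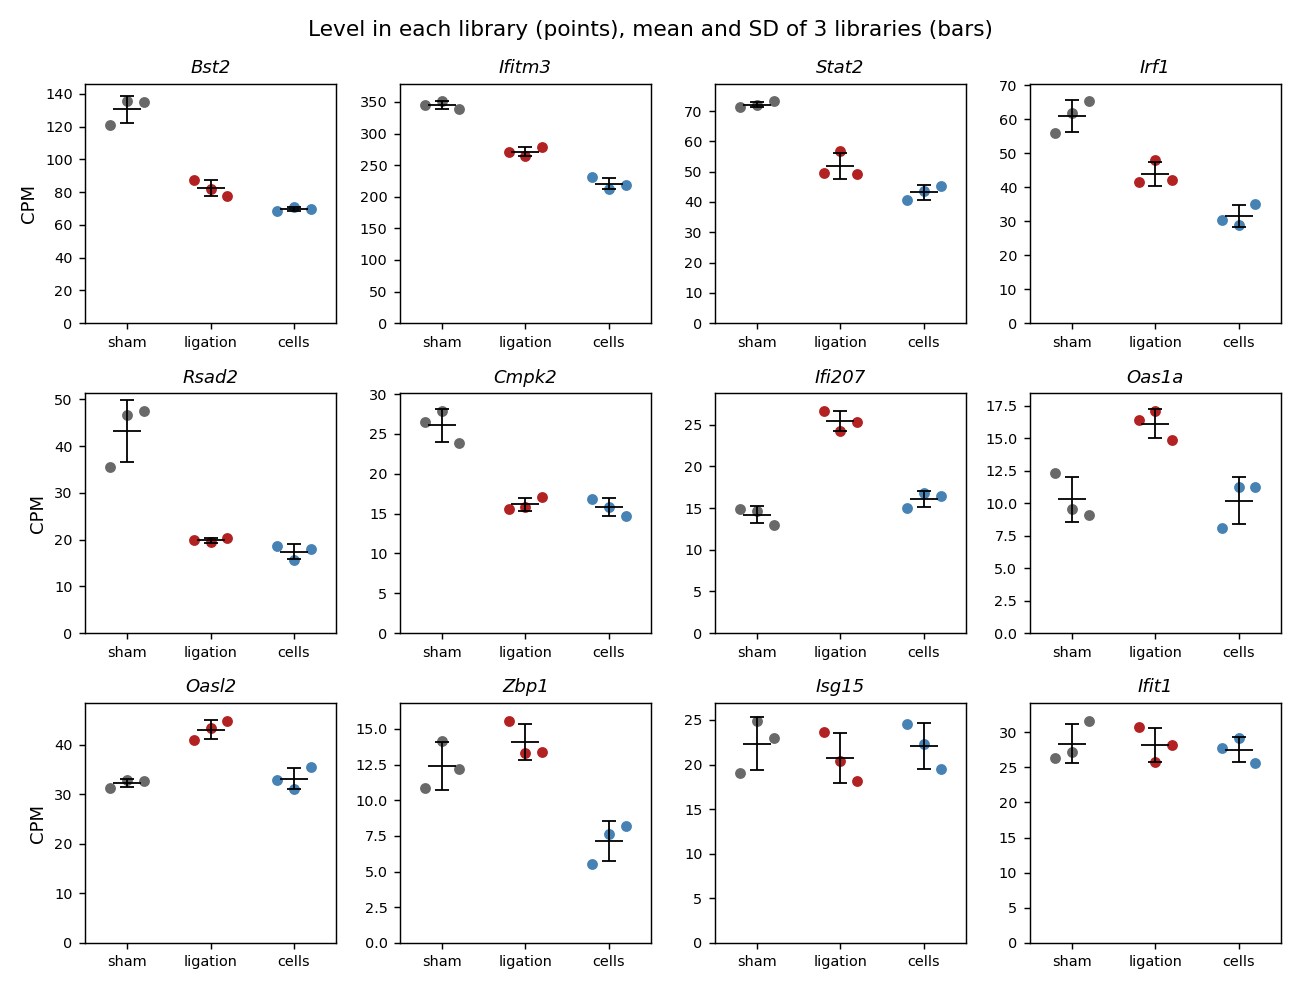
Each panel gives the level of 1 gene in CPM (vertical axis from 0) in the 9 libraries, with bars for the mean and SD of 3. Bst2, Ifitm3, Stat2 and Irf1 step down from sham to ligation to cells without overlap, Rsad2 and Cmpk2 are high in sham alone, Ifi207, Oas1a and Oasl2 are high in ligation alone, Zbp1 is low with cells, and Isg15 and Ifit1 overlap in all groups.

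Of 3 restriction factors in membranes, Ifitm3 and Bst2 fell after ligation and were lower with cells than in ligation, beside 18.0% and 5.69% of all genes. Ifitm3 encodes a protein that blocks fusion of viruses with endosomes, and Bst2 encodes tetherin, which holds budding virus at the cell surface. Ifitm3 was at 345, 351 and 339.5 CPM in sham, 271, 264 and 278 CPM in ligation and 231, 213 and 219 CPM with cells. It fell after ligation (log2 -0.35, SE 0.0485, edgeR adjusted p = 7.76e-06) and was lower again with cells (log2 -0.30, SE 0.0489, adjusted p = 0.000315). Of its 31-base stretches, 20.5% are shared with other genes, chiefly Ifitm1.

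Bst2 was at 121, 135 and 135 CPM in sham, 87.6, 82.2 and 77.6 CPM in ligation and 68.7, 70.7 and 69.9 CPM with cells, with no overlap between any groups. It fell 1.59-fold after ligation (log2 -0.67, SE 0.0659, edgeR adjusted p = 6.62e-08). With cells it was 1.18-fold lower than in ligation (log2 -0.24, SE 0.0679, adjusted p = 0.0300 by edgeR). That second call was lost with DESeq2 (0.0605) and when any of the 3 cell libraries (0.0566 to 0.0995), ligation replicate 1 (0.0903) or ligation replicate 2 (0.0795) was left out. Ifitm1 stayed between 5.25 and 9.08 CPM and was not called.

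Of the PARP genes, which encode ADP-ribosyl transferases, and their partner Dtx3l, 1 of 3 fell after ligation and 0 were called with cells against ligation, beside 18.0% and 9.87% of all genes. Parp14 was at 76.9, 79.4 and 82.5 CPM in sham, 66.5, 68.0 and 65.3 CPM in ligation and 59.9, 65.3 and 58.6 CPM with cells. It fell 1.20-fold after ligation (log2 -0.26, SE 0.0664, edgeR adjusted p = 0.00391), a call lost with library totals alone (log2 -0.07, adjusted p = 0.416). Parp9 and Dtx3l, which overlap on opposite strands of chromosome 16, lay between 28.5 and 39.8 CPM in all libraries and were not called, and without a stated strand setting their reads cannot be told apart where they overlap.

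Of the 10 genes of the IFI27 family and other interferon-induced genes, 2 rose and 4 fell after ligation, and 1 fell with cells against ligation. Of all genes, 20.1% were higher and 18.0% lower after ligation and 5.69% lower with cells against ligation, and 2 of 10 and 1 of 10 are near those shares. Xaf1, a proapoptotic antagonist of XIAP, was at 42.4, 37.1 and 43.2 CPM in sham, 26.4, 24.2 and 27.9 CPM in ligation and 22.4, 21.4 and 25.2 CPM with cells. It fell 1.56-fold after ligation (log2 -0.64, SE 0.0998, edgeR adjusted p = 2.98e-05) and was not called with cells against ligation (0.307). Ifi35, Sp100 and Samd9l fell as well after ligation, with log2 fold changes of -0.47, -0.33 and -0.23. Sp100, a component of nuclear bodies, averaged 88.5 ± 3.91 CPM (SD, n = 3) in sham, 70.5 ± 1.26 CPM in ligation and 60.3 ± 5.18 CPM with cells, and just missed the threshold with cells against ligation (edgeR adjusted p = 0.0502).

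Ifi27l2a, a small mitochondrial protein's gene, was at 111, 117 and 126 CPM in sham, 151, 158 and 138 CPM in ligation and 130.5, 157 and 133 CPM with cells. It rose 1.26-fold after ligation (log2 0.34, SE 0.0751, edgeR adjusted p = 0.00128), and ligation and cells overlapped. It was 1.19-fold higher with cells than in sham (adjusted p = 0.0107 by edgeR), a call lost without sham replicate 1 (0.0588) or cells replicate 2 (0.0875). Ifi27, whose annotated end lies 1.93 kb from it, averaged 119.6 ± 5.70 CPM (SD, n = 3) in sham, 114 ± 6.43 CPM in ligation and 114 ± 6.52 CPM with cells, and was not called.

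Lgals3bp, a secreted galectin-3 ligand, was at 80.6, 93.7 and 81.0 CPM in sham, 105, 101 and 109.5 CPM in ligation and 82.0, 86.4 and 86.1 CPM with cells. Ligation stood above both other groups. It rose after ligation (log2 0.31, SE 0.0685, edgeR adjusted p = 0.00127) and was lower with cells than in ligation (log2 -0.31, SE 0.0677, adjusted p = 0.00426). Trim30a, which restrains Toll-like receptor signalling, was at 28.8, 32.0 and 31.1 CPM in sham, 39.6, 37.8 and 29.9 CPM in ligation and 26.5, 30.4 and 29.5 CPM with cells. Ligation replicate 3 lay within the range of sham and the other 2 ligation libraries above it. Trim30a was not called after ligation (edgeR adjusted p = 0.140) or with cells (0.0852), but without ligation replicate 3 both comparisons passed (0.0263 and 0.0156), and with library totals alone it was called higher after ligation (log2 0.39, adjusted p = 0.00415). Ifi44 stayed between 14.1 and 20.8 CPM and was not called, and Rtp4, at 24.96 to 37.3 CPM, was lower with cells than in sham alone (edgeR adjusted p = 0.0484).

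The p200 genes Ifi204 and Ifi207 encode relatives of DNA sensors and lie 5.54 kb apart on chromosome 1. Ifi207 was at 14.95, 14.7 and 13.02 CPM in sham, 26.6, 24.3 and 25.4 CPM in ligation and 15.04, 16.8 and 16.4 CPM with cells. It rose 1.79-fold after ligation (log2 0.84, SE 0.118, edgeR adjusted p = 8.96e-06), the largest rise among the members, and was 1.58-fold lower with cells than in ligation (log2 -0.66, SE 0.113, adjusted p = 0.000481). Ligation stood clear of both other groups.

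Ifi204 was at 18.5, 21.4 and 17.0 CPM in sham, 23.2, 31.8 and 21.2 CPM in ligation and 15.04, 19.6 and 14.98 CPM with cells. Ligation replicate 2 was the highest library and ligation replicate 3 lay within the sham range. It was called higher after ligation (log2 0.43, SE 0.153, edgeR adjusted p = 0.0336) and lower with cells against ligation (log2 -0.62, adjusted p = 0.0108). Without ligation replicate 2 neither call passed (0.288 and 0.115). The call after ligation was also lost with DESeq2 (0.0542) and without sham replicate 1 (0.0814) or 3 (0.133), and the call with cells without cells replicate 3 (0.0512). Ifi204 shares 34.0% and Ifi207 14.8% of their 31-base stretches with other genes, chiefly Mndal for the first and Ifi203 for the second. The macrophage marker sum given above was highest in the same ligation libraries in which Oas1a, Oasl2, Lgals3bp and Ifi207 were highest, and its part in their values was not tested.

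The interferons themselves were all but absent from the counts. Of 21 ligand genes, Ifnb1, the alpha interferons and the lambda interferons among them, 20 had 0 counts in all 9 libraries. Ifng had 1 count, in ligation replicate 3. A count of 0 allows a level of up to 0.375 to 0.639 CPM, the value of 3 counts, in a library.

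The receptor and its kinases showed small differences. Among 11 receptors, kinases and STATs, 4 were higher and 2 lower after ligation, 0 higher and 2 lower with cells against ligation, and 4 higher and 3 lower with cells against sham. Of all genes, 20.1% were higher and 18.0% lower after ligation, 4.19% and 5.69% with cells against ligation, and 21.0% and 20.0% with cells against sham, and 2 of 11 lower after ligation is near that share. Ifnar1 averaged 38.7 ± 0.807 CPM (SD, n = 3) in sham, 43.0 ± 4.90 CPM in ligation and 40.9 ± 0.762 CPM with cells and was not called. Ifnar2 was at 31.3, 30.0 and 27.8 CPM in sham, 35.8, 35.3 and 35.0 CPM in ligation and 27.9, 33.3 and 29.5 CPM with cells. Its rise after ligation (log2 0.25, edgeR adjusted p = 0.0385) was lost with DESeq2 (0.128), with no filter on low counts (0.0663), with only the 2 groups in the fit (0.0510), without mitochondrially encoded genes (0.0535), with libraries of a shared header stem summed (0.0968), and in 5 of the 9 fits that leave out 1 library, which include each of the 3 ligation libraries.

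Jak1 averaged 127 ± 6.44 CPM (SD, n = 3) in sham, 138 ± 5.81 CPM in ligation and 146 ± 3.55 CPM with cells, and was called only with cells against sham (1.14-fold, edgeR adjusted p = 0.0118), a call lost without sham replicate 1 (0.0757) or cells replicate 3 (0.0529). With library totals alone, Jak1, Ifnar1 and Tyk2 were called higher after ligation (edgeR adjusted p = 0.000333, 0.00299 and 0.0338), and Ifnar1 also with cells against sham (0.0354). Tyk2 averaged 25.8 ± 3.50, 27.9 ± 1.10 and 23.0 ± 1.91 CPM in the same order and was not called.

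Of 21 tested genes listed for the induction of interferon, 9 were higher and 3 lower after ligation. With cells against ligation, 0 were higher and 10 lower. The shares of all genes were 20.1% and 18.0% in the first comparison and 4.19% and 5.69% in the second. The list mixes genes that promote induction with genes that restrain it, such as Trex1, Samhd1 and Adar. Irf3, the factor that starts Ifnb1 transcription, was at 39.9, 42.5 and 37.1 CPM in sham, 29.4, 30.5 and 31 CPM in ligation and 28.2, 29.5 and 28.4 CPM with cells. It fell 1.31-fold after ligation (log2 -0.39, SE 0.0868, edgeR adjusted p = 0.00122), a call lost with library totals alone (0.0725). The endosomal receptors for nucleic acid, Tlr7, Tlr8 and Tlr9, were called higher after ligation and lower with cells against ligation. Tlr7 was at 2.85, 3.29 and 5.08 CPM in sham, 7.03, 8.39 and 5.63 CPM in ligation and 2.27, 1.80 and 1.58 CPM with cells. It rose after ligation (log2 0.89, edgeR adjusted p = 0.0142, lost without sham replicate 1, sham replicate 2 or ligation replicate 2 at 0.0671, 0.0531 and 0.0894) and was 3.67-fold lower with cells than in ligation (0.000215). Tlr8 and Tlr9 reached only 2.58 and 2.19 CPM in ligation and were 3.15-fold and 5.32-fold lower with cells (edgeR adjusted p = 0.0208 and 0.0068). Both were near the level of 3 counts in the other groups. With 1 library left out, their log2 fold changes with cells against ligation ran from -2.33 to -1.27 and from -3.20 to -2.02. The call of Tlr8 with cells was lost with DESeq2 (0.0605) and in 5 of the 9 fits that leave out 1 library (up to 0.111), which include each of the 3 ligation libraries and cells replicates 2 and 3.

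**Figure D5:**
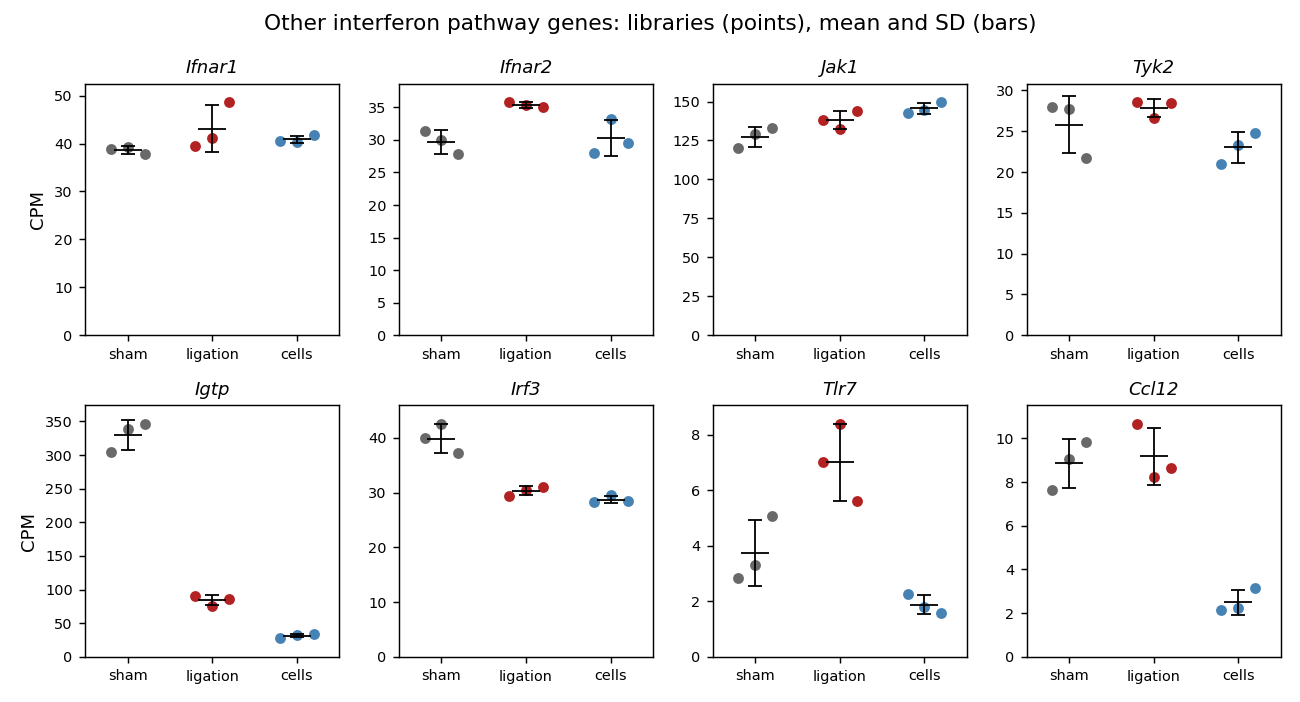
Each panel gives the level of 1 pathway gene in CPM (vertical axis from 0) in the 9 libraries, with bars for the mean and SD of 3. Igtp steps down from sham to ligation to cells, Irf3 is high in sham, Tlr7 is high in ligation, Ccl12 is low with cells, and Ifnar1 and Tyk2 overlap between sham and ligation or between ligation and cells.

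Among 14 negative regulators, 4 were higher and 1 lower after ligation, and 0 higher and 2 lower with cells against ligation, beside 20.1% and 18.0% of all genes after ligation and 4.19% and 5.69% with cells against ligation. Socs1, the feedback inhibitor of the JAK kinases, averaged 2.99 ± 0.313 CPM (SD, n = 3) in sham, 2.27 ± 0.673 CPM in ligation and 2.27 ± 0.525 CPM with cells and was not called.

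Of 71 other interferon-stimulated genes tested, 6 were higher and 25 lower after ligation, 1 higher and 28 lower with cells against ligation, and 3 higher and 42 lower with cells against sham. Their median log2 fold changes were -0.19, -0.33 and -0.46 in that order, beside 0.01, 0.00 and -0.01 for all genes. The shares of all genes called were 20.1% higher and 18.0% lower after ligation, 4.19% and 5.69% with cells against ligation, and 21.0% and 20.0% with cells against sham. Igtp and Cxcl9, known as interferon-gamma targets, had log2 fold changes of -1.97 and -1.66 after ligation (edgeR adjusted p = 1.79e-14 and 2.09e-09), beside -1.12 for Rsad2. Igtp, an immunity-related GTPase, averaged 329.9 ± 22.4 CPM (SD, n = 3) in sham, 84.2 ± 7.48 CPM in ligation and 31.6 ± 2.80 CPM with cells. Cxcl9, a chemokine that attracts T cells, averaged 37.1 ± 1.52 CPM in sham, 11.8 ± 1.56 CPM in ligation and 8.03 ± 1.35 CPM with cells. Igtp was also lower with cells than in ligation (log2 -1.41, edgeR adjusted p = 1.86e-10), and so was Cxcl9 (log2 -0.55, 0.0295), a call lost with DESeq2 (0.0563), with only the 2 groups in the fit (0.0643) and without ligation replicate 1 (0.0895), ligation replicate 3 (0.113), cells replicate 2 (0.137) or cells replicate 3 (0.0679).

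Further genes of this list fell with cells against ligation. Ccl12, a chemokine for monocytes, was at 7.65, 9.06 and 9.84 CPM in sham, 10.7, 8.25 and 8.63 CPM in ligation and 2.13, 2.22 and 3.17 CPM with cells. It fell 3.60-fold with cells against ligation (log2 -1.85, SE 0.236, edgeR adjusted p = 1.67e-05). Ms4a4c, Slfn1 and Trim14 fell 6.72-fold, 4.50-fold and 3.75-fold (edgeR adjusted p = 0.000388, 0.00726 and 0.00350), from means of 3.89, 2.79 and 3.43 CPM in ligation, so few counts stand behind each. Lgals3, encoding the galectin that binds Lgals3bp, averaged 9.37 ± 0.566 CPM (SD, n = 3) in sham, 36.7 ± 2.61 CPM in ligation and 24.1 ± 3.31 CPM with cells. It rose after ligation (log2 1.96, edgeR adjusted p = 1.91e-10) and was lower with cells than in ligation (log2 -0.60, adjusted p = 0.000984).

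Trim12a lies at chr7:104299894-104315466 (mm10, minus strand), on the same chromosome as Trim30a at chr7:104409025-104465193. It was at 8.54, 9.56 and 7.14 CPM in sham and had 0 counts in all 6 other libraries. It was at least 13.2-fold lower in ligation and at least 19.5-fold lower with cells, taking 3 counts per library as the floor. Shared 31-base stretches were counted for the members only, so those of Trim12a are not known here. Whether the sham mice differed from the others in genotype at this gene, or its reads in their assignment, was not tested. These bounds are therefore not given as a response to ligation.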

How the data were processed

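The authors deposited 1 table per library of whole-number counts per gene, not normalized (per the values). Per the labels' protocols, TRIzol was used for RNA extraction and the NEBNext Ultra RNA kit for library preparation. The build is mm10, per the submitters' processing notes. Aligner, counter, annotation release and strand setting are not given in the sources used here. Each table ends in 5 rows that name no gene, which were left out of library sizes and tests. Of these, reads outside annotated genes were 4.14% to 4.91% of all counts and ambiguous reads 8.09% to 8.72%, and the others were 0.

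Groups and replicate numbers follow the sample titles. The source field of cells replicates 2 and 3 names other FOXO members, while the title and treatment name FOXO3 and were followed. Symbols and mm10 coordinates were attached with GENCODE annotation to 53360 of 53465 genes, and promoters came from RefSeq (GRCm38.p6). Genes were kept with filterByExpr, scaled with TMM factors and fitted with edgeR 4.0.16 in R 4.3.3 (glmQLFit, glmQLFTest) in 1 model of 9 libraries with a mean per group and 6 residual degrees of freedom. Tests are two-sided, with Benjamini-Hochberg adjustment over 13825 genes, a threshold of 0.05, and SE as the log2 fold change divided by the square root of F. Chromosome neighbours, shared 31-base stretches, motif matches and marker sums carry no test.

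Members, lists, and the rule for named genes were chosen with earlier results of these data known. The rule takes, per comparison, the 8 members of largest change among those called at 1 CPM or more on average, the most abundant member of each role, 11 members whatever their values, and 20 pathway genes by a like rule. Pathway and marker lists held 150 and 55 symbols, of which 117 and 37 could be tested. The same fit was run on data simulated for ligation against sham with 13825 genes. It recovered 44 of 100 genes changed by 0.5 on the log2 scale and 74 of 100 changed by 1, with 9 false calls. Far fewer genes were changed in the simulation than were called in the data, which alters the adjusted threshold. These recoveries therefore do not give the sensitivity of the reported tests. No replicate pair agreed within sampling noise (mean chi-square per gene 1.93 to 3.73), so none was counted as a duplicate. The alternatives were other scalings and filters, DESeq2 1.42.0, limma-voom (limma 3.58.1), fits of 2 groups, a replicate block, removal of mitochondrially encoded genes, leaving out each library, and, chosen after seeing the data, summing libraries with a shared header stem. The floor of 3 counts covers counting error alone, because these reads carry no molecular identifiers. Transcripts of the implanted cells were not analysed here. Some genes of the pathway and marker lists are not reported here by name.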

Additional observations from a re-analysis of the deposited data

Results flagged for a closer look

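Reads outside annotated genes, which enter none of the comparisons, took 4.75% ± 0.155 (SD, n = 3) of all counts in ligation, against 4.21% ± 0.0350 in sham and 4.22% ± 0.113 with cells. The range in ligation, 4.60% to 4.91%, lay above that of sham, 4.19% to 4.25%. No test was made of this share.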

How the results depend on the processing

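Counts of members called and their medians kept their direction and stayed close to the values given under RLE factors, both other filters, DESeq2, limma-voom, fits of 2 groups, removal of mitochondrially encoded genes and sums over shared header stems. Library totals alone moved all 3 medians. They became 0.0556 in ligation against sham, a reversal, -0.206 in cells against ligation and -0.130 in cells against sham. The median of all genes shifted by 0.19, -0.03 and 0.16 on the log2 scale in the same order. In each comparison the members' median stayed below that of all genes under both scalings. Named genes that were not called reversed with library totals alone in ligation against sham (Irf7 0.0295, Isg15 0.0597, Oas2 0.0807, Ddx58 0.161, Irf9 0.183, Ifit1 0.169) and in cells against sham (Oas1a 0.149, Lgals3bp 0.154, Isg15 0.142, Ddx58 0.00134, Irf9 0.00468, Ifit1 0.113, Trim30a 0.0687). So did Irf9 in ligation against sham (0.00279) and Lgals3bp in cells against sham (0.00372) with no filter, Slfn1 in ligation against sham with DESeq2 (-0.0119) and without mitochondrially encoded genes (-0.00210), and Tlr8 in cells against sham with limma-voom (-0.203). The summed level of the 42 members, an alternative chosen after seeing the data, reversed with library totals alone in ligation against sham (log2 ratio 0.0263, against -0.160 with TMM factors) and moved to -0.220 in cells against ligation and -0.194 in cells against sham. The cause was not tested.

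Leaving out 1 library at a time, members lower with cells against ligation numbered 6 to 11, with 6 without ligation replicate 2, and members higher with cells against sham numbered 1 to 2. The median ran from -0.201 to -0.166 in cells against ligation. Genes whose sign changed were all uncalled in that comparison. In ligation against sham they ran from -0.0709 to 0.115 (Ccl12), -0.314 to 0.538 (Slfn1), -0.0920 to 0.0611 (Ddx58), -0.0618 to 0.0782 (Irf9) and -0.0740 to 0.0663 (Ifit1). In cells against ligation they ran from -0.0893 to 0.0268 (Ifit1), -0.0883 to 0.0123 (Cmpk2), -0.139 to 0.0210 (Ifnar1) and -0.231 to 0.225 (Socs1). In cells against sham they ran from -0.0960 to 0.133 (Oas1a), -0.0424 to 0.0687 (Lgals3bp), -0.115 to 0.0675 (Isg15), -0.635 to 0.426 (Tlr8), -0.0961 to 0.0399 (Ifit1), -0.0446 to 0.0844 (Ifnar2), -1.02 to 0.164 (Tlr9) and -0.0132 to 0.0828 (Oasl2).

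Same-numbered libraries of different groups did not deviate together (correlations -0.0537 to 0.0586). That gives no sign of pairing by number, but it cannot exclude a weak shared effect. With the replicate number as a block, 7 members were higher and 12 lower after ligation, 0 and 11 with cells against ligation, and 2 and 16 with cells against sham. Genes called numbered 5134, 1230 and 5511 with the block. Depth limits the scarce members, Oas3 and Mx1 first, and the ligands.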
